A study of Mus musculus with 2 samples.

Results

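The cells described here are 500 of the 7023 reprogramming cells in a droplet single-cell RNA-seq table, chosen because they carried the most transcript of the 6 genes Krt19, Msln, Fgfbp1, Itgb4, Perp and Dusp14. For each gene the deposited value was turned into a z-score over all cells and the 6 z-scores were averaged. Only cells with no Epcam UMI (unique molecular identifier, 1 counted RNA molecule) and a UMI of fewer than 3 of the pluripotency genes Utf1, Tdgf1, Tdh, Nanog and Dppa4 could be chosen. This gate left 6114 cells, the 500 highest scores became the Krt19-Msln-Itgb4 cells, and the other 5614 gated cells were the comparison. The choice therefore rests on measured values, and the levels of these 12 genes are given below as a description without a test.

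Both libraries came from 1 group, mouse embryonic fibroblasts at day 16 of reprogramming with STEMCCA, a doxycycline-inducible cassette of Oct4, Sox2, Klf4 and Myc, in mouse embryonic stem cell medium with LIF and ascorbic acid. Every cell in both libraries shares this treatment, no untreated fibroblast library was analysed here, and the cells were not sorted. The study describes 2 independent STEMCCA mouse systems, and which system gave rise to which library is not in the labels. The libraries are called replicate 1 (3109 cells, median 15625 UMIs) and replicate 2 (3914 cells, median 14292 UMIs). P-values and standard errors rest on the spread between these 2 libraries alone. In them limma drew the spread of each gene towards that of all tested genes. Of the 12 cell barcodes found in both libraries, 0 belonged to a Krt19-Msln-Itgb4 cell.

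When fibroblasts are reprogrammed they pass through a mesenchymal-to-epithelial transition, in which collagen and other matrix genes are switched off and keratins, claudins and E-cadherin are switched on. Simple epithelia build filaments from keratins 8, 18 and 19. Skin keratinocytes anchor to their basement membrane through hemidesmosomes built on the alpha6-beta4 integrin, and the mesothelium lining the body cavities carries keratins together with mesothelin. Reprogramming factors also engage the p53 pathway and the Cdkn2a locus, known barriers to pluripotency.

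Krt19, a keratin of simple epithelia on chromosome 11 (100140810 to 100148665, minus strand, GRCm38), averaged 0.964 and 1.44 UMIs per 10000 UMIs of a cell in the Krt19-Msln-Itgb4 cells of replicates 1 and 2, against 0.0560 and 0.0676 in the other gated cells. Msln, the gene of mesothelin, a cell surface glycoprotein (chromosome 17, 25748613 to 25754378, minus strand), averaged 0.972 and 2.85 against 0.0647 and 0.0795. Of the 6 genes it differed most between the replicates within the chosen cells. Fgfbp1, a secreted carrier of fibroblast growth factors (chromosome 5, 43978858 to 43981779, minus strand), averaged 0.551 and 0.295 against 0.00915 and 0.00759. Itgb4, the integrin beta4 subunit of hemidesmosomes (chromosome 11, 115974709 to 116008412, plus strand), averaged 1.73 and 1.70 against 0.466 and 0.531. Perp, a p53 target needed for desmosome assembly in skin (chromosome 10, 18845020 to 18857073, plus strand), averaged 1.47 and 1.30 against 0.116 and 0.1001. Dusp14, a phosphatase of the MAP kinase pathway (chromosome 11, 84048041 to 84069261, minus strand), averaged 1.60 and 1.39 against 0.393 and 0.313. Levels of different genes are not compared here as amounts of RNA, since 3' counts are not scaled by length.

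At least Krt19, Itgb4 and Fgfbp1 of the same 6 genes were not limited to the gated cells. In the 352 cells with Epcam and fewer than 3 of the pluripotency genes, Krt19 averaged 0.239 and 0.838 UMIs per 10000 in replicates 1 and 2, and Itgb4 averaged 0.769 and 0.809. Fgfbp1 averaged 0.346 and 0.126 there, and 0.194 and 0.0736 in the 557 cells with at least 3 of the 5 pluripotency genes. Msln stood at its lowest in those pluripotency-gene cells, at 0.0364 and 0.0373.

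Promoter sequence was at hand for 2 of the 6 genes, Fgfbp1 and Dusp14, and for Krt18, the gene with the largest increase in the comparison below. The 3 windows are shown so that their starts can be compared. Each holds the 250 bases before the RefSeq transcript start (GRCm38.p6), 5' to 3' on the strand of the gene, at chr5:43981800-43982049 (minus) for Fgfbp1, chr11:84068358-84068607 (minus) for Dusp14 and chr15:102027966-102028215 (plus) for Krt18. The RefSeq start used lies 20 bases upstream of the GENCODE start of Fgfbp1, 36 downstream of that of Krt18 and 904 downstream of that of Dusp14, so these windows and gene bounds need not meet. Capitals mark a match on either strand to 1 of 3 motifs, TGANTCA (AP-1), GGAATG (TEAD) and GGGCGG (GC box).
Fgfbp1: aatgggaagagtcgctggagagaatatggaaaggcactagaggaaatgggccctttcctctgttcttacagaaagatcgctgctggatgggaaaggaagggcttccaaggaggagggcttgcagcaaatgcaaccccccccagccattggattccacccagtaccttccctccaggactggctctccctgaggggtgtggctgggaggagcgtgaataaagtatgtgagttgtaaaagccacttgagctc
Dusp14: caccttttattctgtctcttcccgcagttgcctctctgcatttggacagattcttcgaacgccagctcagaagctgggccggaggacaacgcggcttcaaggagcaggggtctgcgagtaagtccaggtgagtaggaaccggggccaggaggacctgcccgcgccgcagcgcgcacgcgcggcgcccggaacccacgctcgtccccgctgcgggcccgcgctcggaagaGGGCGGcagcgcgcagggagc
Krt18: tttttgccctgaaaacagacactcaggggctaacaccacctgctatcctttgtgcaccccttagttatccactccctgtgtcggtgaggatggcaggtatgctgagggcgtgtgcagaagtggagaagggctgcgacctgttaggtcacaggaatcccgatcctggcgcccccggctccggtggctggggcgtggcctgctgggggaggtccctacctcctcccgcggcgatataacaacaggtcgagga
The Dusp14 window held 1 GC box, beginning 21 bases before the start, and the other windows held no match. Among all 32851 windows of this length in the table, 6.75% held the AP-1 letters, 12.6% the TEAD letters and 32.7% the GC box. Of the 170 genes called higher below, 125 had a window, and the AP-1 letters were in 8.8% of these genes, the TEAD letters in 14.4% and the GC box in 71.2%. Of the 160 genes called lower with a window, 8.125%, 15% and 59.4% held them, and of the 5476 tested genes with a window 4.89%, 12.5% and 68.2%. These shares were not tested, and they are matches of letters and no measurement of binding.

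Scores ran without a gap across the lower limit of the chosen cells, so the 500 are one end of a range. The highest score was 4.35, the median of the chosen cells 1.22, the lowest chosen score 0.754963 and the next score down 0.754841. There were 69 chosen cells within 0.1 above the limit and 75 other cells within 0.1 below it. The 10 cells just inside and the 10 just outside were alike in depth, with median UMI counts of 21190.5 and 20350, with Krt19 detected in 7 and 4 of them, Itgb4 in 10 and 8 and Perp in 6 and 3. Msln was detected in 3 and 5, Dusp14 in 7 and 9 and Fgfbp1 in 1 and 1. A chosen cell had a UMI of 4 of the 6 genes at the median in both replicates, and 89.9% and 86.0% of chosen cells in replicates 1 and 2 had at least 3. Other gated cells had 1 at the median, and 8.89% and 7.24% had at least 3.

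**Figure D1:**
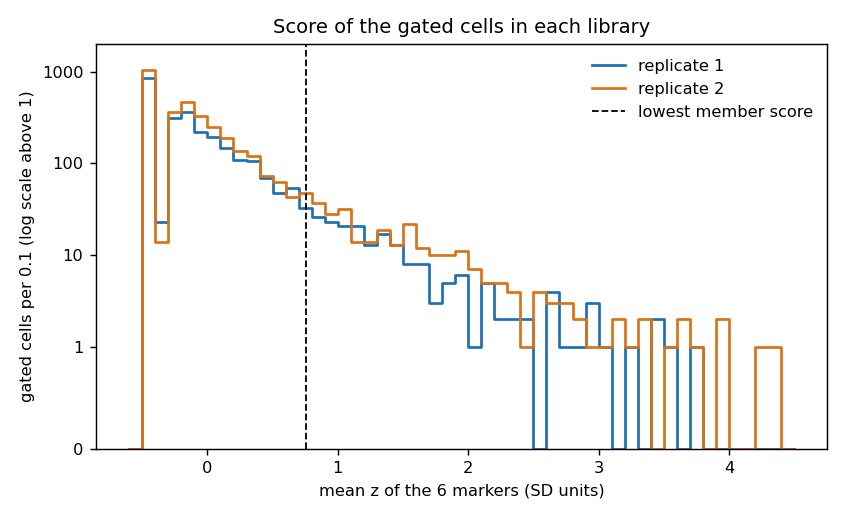
Number of gated cells in each score bin of 0.1 (y axis, logarithmic above 1) against the mean z-score of the 6 genes (x axis) for replicate 1 (blue) and replicate 2 (orange). The dashed line is the lowest chosen score, 0.754963, and neither library has a gap there.

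The Krt19-Msln-Itgb4 cells were 208 of 2716 gated cells in replicate 1, 7.66% (exact 95% binomial interval 6.69 to 8.72, counting error only), and 292 of 3398 in replicate 2, 8.59% (7.67 to 9.59). The intervals overlap, and the mean of the libraries was 8.13% ± 0.661 (SD, n = 2). The chosen cells were deeper than the others, with median UMI counts of 21495.5 and 18095.5 against 14372 and 13230.5. Mitochondrial transcripts took 3.69% and 3.70% of a chosen cell at the median against 4.12% and 4.13%, and ribosomal protein transcripts took 33.4% and 33.8% against 35.2% and 38.9%. The part of depth in the results below was not tested beyond the depth-matched alternatives given with them.

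Each of the 6 genes was also left out of the score in turn, and 500 cells were chosen on the other 5. Each such set shared 399 to 446 cells with the 500 described here. The 6 genes were chosen with earlier results of these data known. A higher level of the gene left out could therefore be foreseen, and it is given as description. The gene left out was higher in the chosen cells than in the rest in both libraries for all 6. Krt19 averaged 0.523 and 0.990 UMIs per 10000 in cells chosen without it, against 0.0904 and 0.114 in the rest, a log2 difference (with 0.1 added to each level) of 2.03 ± 0.454 (SD, n = 2 libraries). Itgb4 averaged 1.32 and 1.41 against 0.5005 and 0.559, a log2 difference of 1.22 ± 0.0263. Perp, at 0.848 and 0.844 against 0.167 and 0.143, gave 1.89 ± 0.0944. These last genes thus varied little between libraries. Msln gave 1.97 ± 0.697, Dusp14 1.37 ± 0.102 and Fgfbp1 1.36 ± 0.447. The smallest p that an exact two-sided test by sign flips could reach over 2 libraries is 0.5, so these stand as values. Across single gated cells the 15 pairs of these genes had Pearson correlations of 0.0939 to 0.243 over 6114 cells that share libraries and depth.

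**Figure D2:**
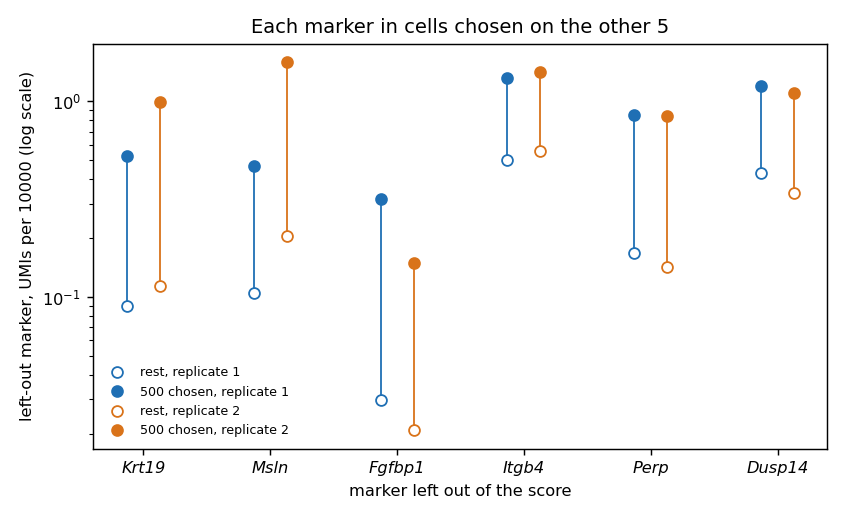
Mean UMIs per 10000 (y axis, log scale) of each gene in the 500 cells chosen on the other 5 genes (filled) and in the remaining gated cells (open), with 1 line per library, replicate 1 in blue and replicate 2 in orange. The filled point lies above the open point in both libraries for all 6 genes, and Msln in replicate 2 is the highest, at 1.58.

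Beyond the genes of the score, 170 of 7074 tested genes were higher in the Krt19-Msln-Itgb4 cells and 232 were lower, 2.4% and 3.28% of those tested. A gene was tested where its mean over the gated cells reached 0.1 UMIs per 10000, and called at a Benjamini-Hochberg adjusted p under 0.05 (limma, library as a term) and at least 1.5-fold, on the scale of log2(level + 0.1). Every log2 difference that follows is on that scale, chosen minus other cells, with its standard error. The median over all tested genes was 0.03, and the 402 called genes moved the same way in both libraries. Across all tested genes the differences of the libraries had a Pearson correlation of 0.750, a value across genes, which are not independent. With each cell thinned to 4000 UMIs 106 genes were higher and 172 lower, and with the other cells weighted to the depths of the chosen cells 108 and 253. With no minimum level limma called 0 genes, although 3527 had an unadjusted p under 0.05.

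**Figure D3:**
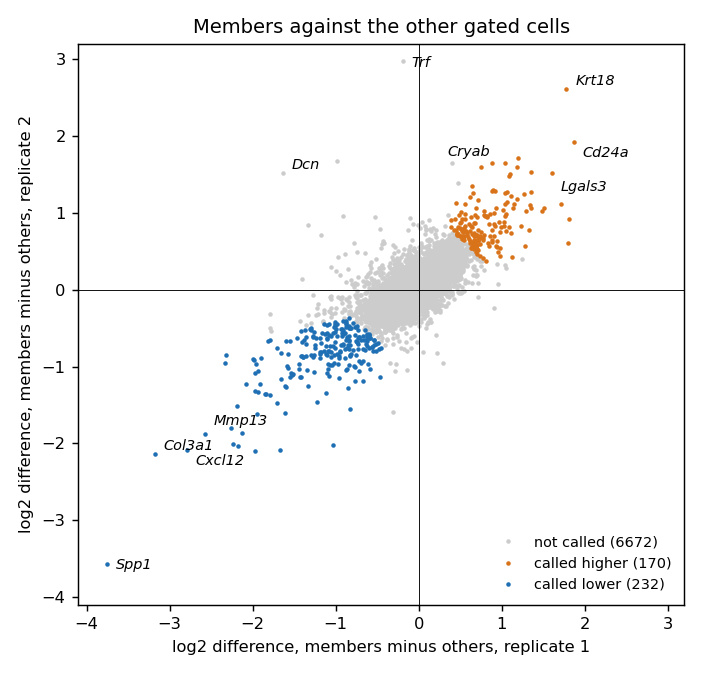
Log2 difference of each of the 7074 tested genes, Krt19-Msln-Itgb4 cells minus other gated cells, in replicate 1 (x axis) and replicate 2 (y axis). The 170 genes called higher are in orange and the 232 called lower in blue, Spp1 lies farthest down in both libraries, and Trf and Dcn are raised in replicate 2 alone.

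The largest increases were in Krt18 and Cd24a. Krt18, the keratin that pairs with keratin 8 in simple epithelia, averaged 0.519 and 0.956 UMIs per 10000 in the chosen cells of replicates 1 and 2 against 0.0810 and 0.0722, a log2 difference of 2.20 ± 0.200. Its level in the other cells was under the minimum for testing, as for 7 of the 170 genes in all, Pkp2 among them, so it entered the test through the chosen cells and is given as a value only. Cd24a, a surface glycoprotein of many epithelial and progenitor cells, averaged 1.38 and 1.26 against 0.306 and 0.258, with hardly any difference between libraries (1.89 ± 0.0872, adjusted p = 0.00291). Lgals3, the gene of the lectin galectin-3, stood at 7.20 and 8.47 against 2.30 and 2.89 (1.56 ± 0.0882, adjusted p = 0.00469).

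Cell cycle and growth regulators were also among the 20 largest increases. Ccnd1, the gene of cyclin D1, averaged 4.27 and 4.20 UMIs per 10000 against 1.61 and 1.39 (1.44 ± 0.0942, limma adjusted p = 0.00651), and Ccnd2, the gene of cyclin D2, averaged 21.8 and 17.4 against 9.01 and 7.27 (1.26). Both cyclins open the way from G1 into S phase. Id1, an inhibitor of basic helix-loop-helix factors and a target of BMP signalling, averaged 1.17 and 1.52 against 0.396 and 0.566 (1.32). Edn1, the precursor gene of the peptide endothelin-1, averaged 1.01 and 1.06 against 0.390 and 0.284 (1.39). Gsto1, a glutathione transferase, was 7.23 and 3.68 against 2.13 and 1.65 (1.41 ± 0.156, adjusted p = 0.0112), and Cryab, a small heat shock protein gene, was 6.51 and 9.56 against 3.12 and 2.99 (1.34). Phlda1, Urah, Anxa3, Ly6a, 2200002D01Rik, Rras2, Upp1, Lxn, Crabp1, Wfdc2 and Tubb2b completed the 20, with log2 differences of 1.18 to 1.45. Over single gated cells the genes that followed the score most closely were Ccnd1, Anxa3, Gsto1, Lgals3, S100a6, Cd24a, Ccnd2, S100a10, Rps27l and Rras2, with Pearson correlations of 0.303 to 0.364 over 6114 cells.

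Spp1, the gene of the secreted matrix protein osteopontin, fell most. It averaged 0.677 and 0.453 UMIs per 10000 in the chosen cells of replicates 1 and 2 against 10.4 and 6.45 in the others, a log2 difference of -3.66 ± 0.0955 (limma, adjusted p = 0.00059). Col3a1, a fibrillar collagen of fibroblasts, averaged 0.444 and 0.565 against 4.84 and 2.82 (-2.66 ± 0.241, adjusted p = 0.00846). Cxcl12, a chemokine of stromal cells, averaged 0.0519 and 0.0488 against 0.956 and 0.532 (-2.44). The mean levels of chosen and other cells were far apart in both libraries for all 3. The matrix-degrading collagenase Mmp13 and stromelysin Mmp3 were close to absent, with Mmp13 at 0.0101 and 0.0132 against 0.556 and 0.316 (-2.23) and Mmp3 at 0.00623 and 0.00366 against 0.382 and 0.324 (-2.11). The pericyte and fibroblast receptor gene Pdgfrb was 0.233 and 0.223 against 1.11 and 0.731 (-1.61). Gpx3, Aspn, Wisp2, Wfdc17, Ccl8, Ptn, Sod3, Eln, Mfap5, Col12a1, Bgn, Plvap, Cdkn1c and Thbs2, many of them matrix or secreted proteins, made up the rest of the 20 and fell by 1.59 to 2.12 on the log2 scale. For 93 of the 232 lower genes, Cxcl12, Mmp13, Mmp3, Eln, Wfdc17, Plvap, Lyz2, Fgf7, Spry1 and Itga11 among them, the level in the chosen cells was under the minimum, so they entered the test through the other cells.

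Most genes of the fibroblast list fell. Of 16 tested fibroblast genes 12 were lower and 0 higher, with a median log2 difference of -1.04 against 0.03 over all genes. Over all tested genes 3.28% were lower. Postn and Fbln1, among the 12, were under the minimum in the chosen cells and entered the test through the other cells. Without the library term 8 were lower, with a pseudocount of 0.01 7, with 1 4, and with no minimum level 0. Col1a1, the main chain of type I collagen, averaged 2.06 and 1.85 UMIs per 10000 against 8.19 and 3.94 (-1.50, limma adjusted p = 0.0179), and Sfrp1, a secreted Wnt inhibitor, averaged 2.29 and 1.93 against 6.28 and 4.36 (-1.28). The levels in the chosen cells were nonetheless not those of cells without fibroblast genes. Summed over the 18 listed genes they carried 19.8 and 19.8 UMIs per 10000, and the other gated cells 53.2 and 31.9. The cells with Epcam described above carried 14.2 and 13.1, less than the chosen cells, and the pluripotency-gene cells 4.04 and 4.13. Of 8 tested mesenchymal transcription factors, Zeb2, Prrx2 and Tcf4 were lower (-0.61, -0.85 and -0.89) and 0 were higher, while Twist1 (-0.28) and Zeb1 (-0.30) did not pass. Vim, the gene of the mesenchymal filament vimentin, averaged 22.9 and 18.9 in chosen cells against 16.0 and 14.2 and was not called, at 0.46 under the 1.5-fold limit.

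Of 11 tested smooth muscle contractile genes 4 were higher, 0 lower and 7 not called (median 0.46), Mylk among the last at -1.06. Of all tested genes 2.4% were higher. Actg2, the enteric smooth muscle actin, averaged 20.6 and 15.9 UMIs per 10000 against 11.1 and 6.47 (1.08 ± 0.121, limma adjusted p = 0.0118), and Acta2, the vascular smooth muscle actin, averaged 26.4 and 21.1 against 18.8 and 10.7 (0.73, adjusted p = 0.0329). The replicate 2 level of Acta2 in chosen cells lay above both other-cell levels. The other 2 were Tpm1 and Lmod1. Without the library term 0 of the 11 were called, with a pseudocount of 0.01 or with Krt19 left out of the score 1 was higher, and with the other cells weighted by depth 2 were higher and 1 lower.

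In the list of keratinocyte genes and of the Ly6, S100 and annexin families, 8 of 12 tested genes were higher. Emp1 was lower (-0.79), the median log2 difference was 0.81, and 2.4% of all tested genes were higher. With 1000 cells or a pseudocount of 0.01, 6 of the 12 were higher. Ly6e (-0.26), Anxa8 (0.40) and Lgals7 (0.67) were not called. S100a6, a calcium-binding protein gene, averaged 66.0 and 68.5 UMIs per 10000 against 31.7 and 28.2 (1.17 ± 0.0982, limma adjusted p = 0.00796). Anxa2, a membrane-binding annexin, averaged 8.77 and 9.24 against 4.23 and 3.80 (1.15), and Ly6a, the stem cell antigen Sca-1, averaged 12.6 and 8.29 against 4.35 and 3.89 (1.29). S100a10, S100a11, Lgals3, Anxa1 and Anxa3 were the others. Several keratinocyte genes were under the minimum for testing. Sfn averaged 0.0417 and 0.0707 against 0.0472 and 0.0332, and Krtdap 0.0846 and 0.0774 against 0.0421 and 0.0554. Sprr1a, a cornified envelope gene, averaged 0.00604 and 0.273 against 0.00147 and 0.00227, a difference seen in replicate 2. Krt14 had 0 and 2 UMIs in all chosen cells, and Trp63, the master regulator of stratified epithelia, had 0 and 1.

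Of 14 tested p53 targets 8 were higher and 0 lower (median 0.61), while 2.4% of all tested genes were higher. The number higher was 1 with a pseudocount of 1, 4 with 0.01 or with 1000 cells, and 6 after thinning to 4000 UMIs. With 250 cells it was 11. Cdkn1a, the cell cycle inhibitor p21, averaged 6.62 and 5.65 UMIs per 10000 against 3.21 and 3.12 (0.93 ± 0.0950, limma adjusted p = 0.00991). Mdm2, which targets p53 for degradation, averaged 0.974 and 0.792 against 0.469 and 0.402 (0.87), and Ccng1, the gene of cyclin G1, averaged 2.05 and 1.85 against 1.05 and 0.978 (0.88). Phlda3, Bax, Aen, Btg2 and Rps27l were the other genes called. Perp is itself a p53 target and part of the score, and with Perp left out of the score 4 of the 14 were called, with a median of 0.51. Cdkn2a, which encodes the p16 and p19ARF tumour suppressors from overlapping transcripts that 3' counts cannot separate, averaged 2.39 and 1.80 against 1.31 and 0.885 (0.88, adjusted p = 0.00991).

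**Figure D4:**
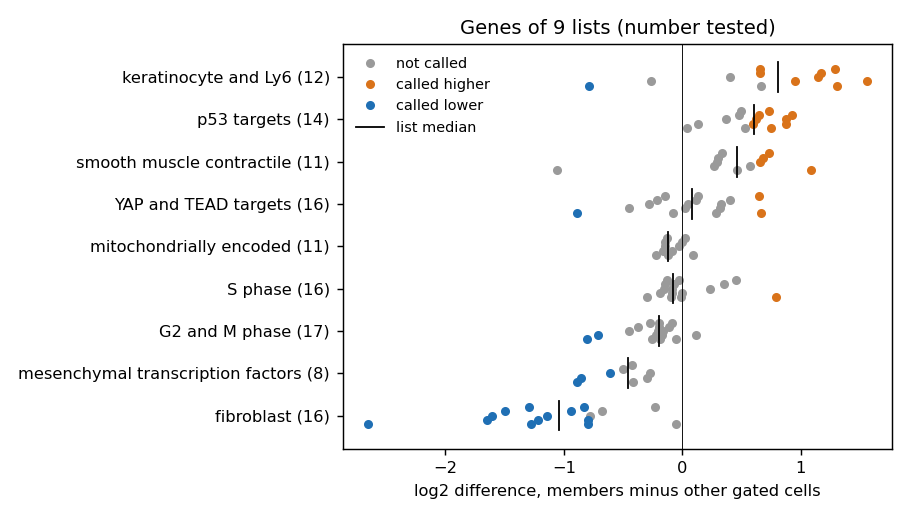
Log2 difference of each tested gene, Krt19-Msln-Itgb4 cells minus other gated cells, in 9 gene lists (number tested in brackets), with genes called higher in orange, lower in blue and not called in grey, and a black bar at the list median. The fibroblast list lies lowest, at a median of -1.04, and the keratinocyte and Ly6 list highest, at 0.81.

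In the lists that follow up to 2 genes were called in a direction, counts too small to set against the 2.4% and 3.28% called over all tested genes. Of 17 tested G2 and M phase genes, Mki67 and Top2a were lower and 0 were higher. Mki67, a marker of cycling cells, averaged 0.313 and 0.313 UMIs per 10000 against 0.639 and 0.606 (-0.81, limma adjusted p = 0.0112). Of 16 tested S phase genes only Ccne1, the gene of cyclin E1, was higher (0.287 and 0.334 against 0.150 and 0.124, 0.79). In the MAP kinase feedback list Dusp1 and Phlda1 were higher and Spry1 lower of 8 tested, and of the EGF family Hbegf was higher of 2 tested. Of 16 tested YAP and TEAD targets Ankrd1 and Myof were higher and Nt5e lower, and of 7 AP-1 genes Junb was lower and 0 were higher. Several of these calls depended on the setting. Of 22 or 23 alternatives, Spry1 was not called in 16, Junb in 13, Dusp1 in 12, Ankrd1 in 9 and Myof in 8. Those totals include each of the 2 libraries taken alone, where no test was possible and no call could be lost. Of 6 tested FGF pathway genes, Fgf7, a growth factor made by fibroblasts for epithelia, was lower (0.0637 and 0.0514 against 0.229 and 0.107, -0.73) and 0 were higher.

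None of 6 tested pluripotency genes, 3 reprogramming factors, 11 mitochondrially encoded genes, 4 X inactivation and Y-linked genes or 2 endothelial genes was called by limma in either direction, although 2235 of the 7074 genes had an unadjusted p under 0.05. Lists of this size would hold few or no calls at the shares called over all genes. Pou5f1 (Oct4), which the cassette also encodes, averaged 0.0268 and 0.114 UMIs per 10000 against 0.0846 and 0.151. Summed over the 20 pluripotency genes not used by the gate, the chosen cells carried 2.79 and 2.92 UMIs per 10000 and the pluripotency-gene cells 71.3 and 80.9, a difference that the gate itself shapes. Of 3 tested neural genes Nes was higher (0.438 and 0.419 against 0.243 and 0.117), of 5 other integrin subunits Itga11 was lower, and of 3 plasminogen system genes Mmp14 was lower. In the dissociation stress list Hspb1 and Hsp90aa1 were higher and Egr1 lower of 9. In the senescence list Cdkn2a was higher and Mmp3 and Mmp13 lower of 8. In the mesenchymal surface and cytoskeleton list S100a4 was higher and Spp1 and Mmp2 lower of 9. Of 23 alternatives, counted as above, S100a4 was not called in 11, and Mmp14 and Hsp90aa1 in 6 each. Thinning to 4000 UMIs and weighting by depth were among them for all of these genes. Lyz2, the only macrophage gene tested, averaged 0.00265 and 0.00545 against 0.110 and 0.329 and entered the test through the other cells. No trophoblast or stratified keratin gene reached the minimum for testing.

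The epithelial character of the chosen cells was uneven. Keratins and a few junction plaque or adhesion genes were present. Krt8, the partner of keratin 18, was under the minimum for testing and averaged 0.127 and 0.272 UMIs per 10000 in chosen cells against 0.0140 and 0.0111. F11r, the tight junction adhesion molecule JAM-A, averaged 0.382 and 0.632 against 0.195 and 0.226 (0.94, limma adjusted p = 0.0179), the only 1 of 7 tested tight and adherens junction genes called. Pkp2, a desmosomal plaque protein gene, averaged 0.357 and 0.309 against 0.107 and 0.0894 (1.13 ± 0.0866), 1 of 3 desmosomal genes tested, and it too entered the test through the chosen cells. Of 4 tested hemidesmosome and laminin-332 genes Cd151, a tetraspanin partner of integrins, was higher (0.72). Itga6, the partner of Itgb4, averaged 0.189 and 0.244 against 0.122 and 0.145 (0.43, not called). Over all tested genes 2.4% were higher, and 1 call in a list this short is too few to set against that share.

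Several defining epithelial genes were at or near 0. Cdh1, the gene of E-cadherin, had 3 and 2 UMIs in all chosen cells of replicates 1 and 2, in 1.44% and 0.685% of them, with 0.319% and 0.741% of the other gated cells, 11.6% and 7.56% of Epcam-positive cells and 58.8% and 59.9% of pluripotency-gene cells. Those shares go with median UMI counts of 21495.5 and 18095.5 in chosen cells, 14372 and 13230.5 in other gated cells, 19359 and 18264 in Epcam-positive cells and 28353.5 and 26097 in pluripotency-gene cells. The tight junction gene Cldn7 had 0 and 4 UMIs, and Ocln, another tight junction gene, 0 and 2. The epithelial splicing factor gene Esrp1 and the epithelial transcription factor genes Grhl2 and Ovol1 had 0 UMIs in both libraries, which allows up to 3 UMIs of those counted in these cells of each library. Spint2, an epithelial protease inhibitor, was the only tested gene of the epithelial factor list, at 0.433 and 0.581 against 0.297 and 0.383 (0.46, not called). Cells with Epcam were excluded by the gate, which could by itself lower genes that accompany Epcam. The part of the gate in these low levels was not tested. Of the genes behind the name partly epithelial, Krt19 and Itgb4 chose the cells, Krt18 and Pkp2 entered the test through them and Krt8 was not tested. This leaves F11r, and Cd151 beside it, as calls without these limits. Each was the only call of its short list. The cells are therefore called here by the genes that chose them.

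A small set of the chosen cells, nearly all in replicate 2, carried genes of the mesothelium. With a UMI of at least 2 of the 8 mesothelial genes Upk3b, Upk1b, Wt1, Lrrn4, Muc16, Gpm6a, Cldn15 and Bnc1 (a limit set after the values were seen), there were 1 of 208 chosen cells in replicate 1 and 24 of 292 in replicate 2, 8.22%. Among other gated cells there were 2 of 2508 and 12 of 3106, among Epcam-positive cells 0 and 2, and among pluripotency-gene cells 0 and 0. Upk1b, a urothelial and mesothelial tetraspanin, had 6 and 166 UMIs in the chosen cells and averaged 0.0166 and 0.365 UMIs per 10000 against 0.00137 and 0.0139 in the others. Wt1, a transcription factor of the mesothelium, had 10 and 70 UMIs and averaged 0.0298 and 0.180 against 0.00868 and 0.0123. With 1 library carrying almost all of them, these genes have no replicate check, and the ways in which the libraries differ cannot be told apart.

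**Figure D5:**
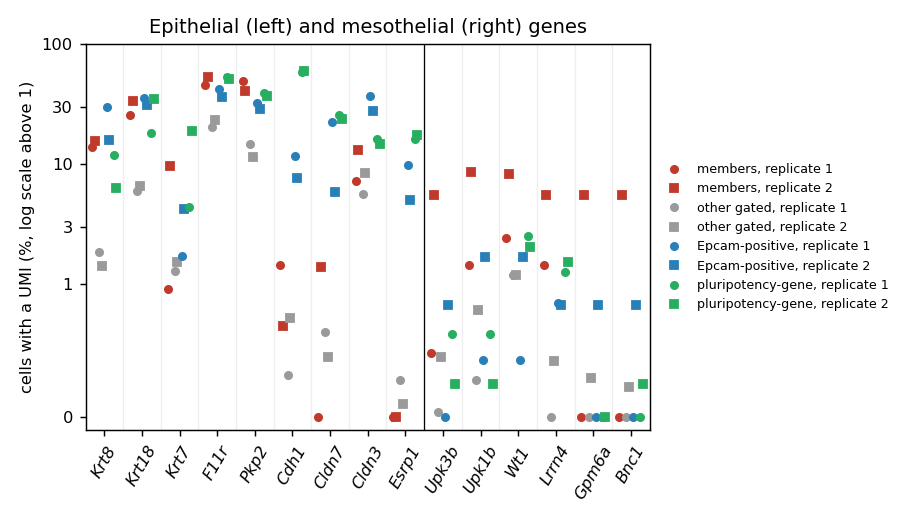
Share of cells with at least 1 UMI (y axis, percent, logarithmic above 1) for 9 epithelial genes (left of the line) and 6 mesothelial genes (right) in Krt19-Msln-Itgb4 cells (red), other gated cells (grey), Epcam-positive cells (blue) and pluripotency-gene cells (green), circles for replicate 1 and squares for replicate 2. Cdh1 was found in 1.44% and 0.685% of the Krt19-Msln-Itgb4 cells, and the red squares stand above the red circles for all 6 mesothelial genes.

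These 25 cells differed from the other 475 chosen cells in both directions. They averaged 13.1 UMIs per 10000 of Msln against 1.49 in the other chosen cells, 5.74 against 0.513 of Krt18, and 4.89 against 0.0105 of Krt7, another simple keratin. The transferrin gene Trf (17.4 against 0.0212), the small matrix proteoglycan gene Dcn (12.2 against 0.251) and the complement gene C3 (5.96 against 0.0709) also had high means in them. Dcn and C3 were each detected in 24 of the 25 cells and Trf in 14. Each of these 3 was thus a gene of the 25 cells more than of the chosen cells at large. Genes that marked the other chosen cells were low. Cd24a averaged 0.0461 against 1.37, Ly6a 0.282 against 10.6, Ccnd1 0.887 against 4.40, and Fgfbp1 0 against 0.422. Perp (1.19 against 1.38) differed less. The 25 cells had a median of 12095 UMIs, and since they are mostly 1 library the differences have no test.

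Without any cell that met this limit, 179 genes were higher and 300 lower than in the other gated cells. The log2 differences of Krt18 in replicates 1 and 2 then stood at 1.76 and 1.91 instead of 1.78 and 2.62. Ezr, a link between membrane and actin and the only mesothelial-list gene called of 3 tested, went from 0.79 to 0.48 and was no longer called. In all, Ezr was not called in 10 of 22 alternatives. Igfbp6, of the same list, went from 1.03 and not called to 0.62 and called (limma adjusted p = 0.0242). Its log2 differences in replicates 1 and 2 were then 0.315 and 0.921. The fibroblast list then had 14 of 16 lower, the keratinocyte and Ly6 list 9 of 12 higher, and the p53 list 7 of 14 higher.

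With the genes of the rule left out, chosen cells had more chosen cells among their neighbours than other cells had, although most of their neighbours were not chosen cells. Of the 15 nearest neighbours of a chosen cell, found on 30 principal components without those 12 genes, 45.7% and 42.7% were chosen cells in replicates 1 and 2, whereas 4.85% and 4.14% of the neighbours of other cells were. In a clustering of the gated cells made without the 12 genes, 259 chosen cells (51.8%), 131 from replicate 1 and 128 from replicate 2, lay in a cluster of 630 cells, 41.1% of them chosen, led by Gsto1, Aldh3a1, Upp1, Cd24a, Gsta4 and Ly6a. Another 79 (26 and 53) lay in a cluster of 255 cells led by Cd24a, Rrm2 and Tagln2 and with a median of 25916 UMIs, the highest among the clusters. A cluster of 42 cells, 2 from replicate 1 and 40 from replicate 2 and led by Trf, Saa3, Gm12840, Krt7 and Upk1b, held 27 of them, including 24 of the 25 cells with mesothelial genes. The remaining 135 were spread over 14 clusters. No cluster is named as a cell type here.

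Set against the Epcam-positive cells, with genes tested where their mean over both groups reached 0.1 UMIs per 10000, 308 of 6988 tested genes were higher in the Krt19-Msln-Itgb4 cells and 152 lower (4.41% and 2.18%). Epcam set these groups apart, so genes that accompany it may differ through the choice, which was not tested. All 17 tested G2 and M phase genes were lower in the Krt19-Msln-Itgb4 cells, with a median log2 difference of -1.11 against 0.05 over all genes. Cenpf, a kinetochore protein gene, differed by -1.50 ± 0.121 (limma, adjusted p = 0.00383), Mki67 by -1.35 and Top2a by -1.22. Smooth muscle genes were higher, 10 of 11 tested, with Cnn1 among them entering the test through the Krt19-Msln-Itgb4 cells. Actg2 stood at 20.6 and 15.9 UMIs per 10000 against 6.10 and 6.71 (1.49 ± 0.148, limma adjusted p = 0.00388). Tagln, an actin-binding protein gene, stood at 9.38 and 7.86 against 3.03 and 3.22 (1.43). Of 15 tested fibroblast genes 5 were higher and 1 lower, and of 8 mesenchymal surface and cytoskeleton genes 6 were higher and 0 lower. Spp1 was not called, at 0.57 under the 1.5-fold limit. Low fibroblast gene levels were thus not particular to the Krt19-Msln-Itgb4 cells. The keratin gene Krt8 was lower in the Krt19-Msln-Itgb4 cells (-1.26 ± 0.172, limma adjusted p = 0.00688), and Krt18 was tested and not called. The claudin genes Cldn3 (-1.20) and Cldn7 (-1.60) were among 27 of the 152 lower genes that entered this test through the Epcam-positive cells, and 31 of the 308 higher genes entered it through the Krt19-Msln-Itgb4 cells. Lgals3 (1.52), S100a6 (1.45) and Cryab (1.94) were higher here too, although the same Krt19-Msln-Itgb4 profiles entered both comparisons. Of 15 tested genes of the keratinocyte and Ly6 list 9 were higher and 3 lower. The lower genes were Ly6d (-2.07), Krtdap (-1.07) and Lgals7 (-0.95), and Ly6d and Krtdap entered the test through the Epcam-positive cells. In that list 7 were higher and 0 lower without the library term. Without the library term 139 genes were higher and 74 lower.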

How the data were processed

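Single-cell suspensions at day 16 were made into Chromium 3' version 2 libraries and sequenced on a HiSeq 4000. According to the submitters' processing notes and the study's methods, the authors used Cell Ranger 2.1.1 with the mm10 reference 1.2.0 and Seurat 3.1.2, and kept cells with 1500 to 6000 detected genes and under 9% mitochondrial transcripts. The deposited table of 17408 genes and 7023 cells holds natural log values, the authors' ln(1 + UMIs per 10000 UMIs of the cell). The values gave whole UMIs in 100% of entries (tolerance 0.01), and each cell held 4753 to 60990 UMIs. Removal of doublets before deposit is not described, none were taken out here, and an alternative leaves out the 5% of cells with the most UMIs.

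Values were turned back to UMIs per 10000 and averaged over the cells of each group and library. Since the table is log normalized, no count model was used, and the 4 profiles were compared by limma 3.58.1 (R 4.3.3) on log2(mean + 0.1) with library as a term. Genes averaging 0.1 or more over the gated cells, or over both groups in the comparison with Epcam-positive cells, were tested, with Benjamini-Hochberg adjustment over all tested genes. The 12 genes of the rule were left out. The fit was checked on simulated data. Clusters (leidenalg 0.10.2, resolution 1) and neighbours used 2000 variable genes and 30 components. Shares of cells are not corrected for depth. Intervals cover counting error only. Gene positions are from GENCODE (GRCm38) and promoters from RefSeq (GRCm38.p6).

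Genes named are the 6 genes of the score, the 20 largest called increases and decreases that moved the same way in both libraries, the genes of 32 lists, and the 10 genes most correlated with the score. The members and lists were chosen with earlier results of these data known. Alternatives changed the pseudocount, filter, profile, number of cells, depth and library term. Leaving out each gene of the score, leaving out cells with mesothelial genes and letting the spread follow the level were chosen after seeing the data.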

Additional observations from a re-analysis of the deposited data

How the results depend on the processing

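The 170 genes higher in the Krt19-Msln-Itgb4 cells became 103 with a pseudocount of 0.01, 35 with 1, 94 with a minimum mean of 0.5, 105 with 1000 cells, 106 with cells thinned to 4000 UMIs, 108 with the other cells weighted to the same depths, 422 with no fold limit and 37 with at least 2-fold. The 232 lower genes became 24 with a pseudocount of 1, 99 with the minimum of 0.5, 351 with no fold limit and 80 with at least 2-fold. With no filter limma called 0 in either direction (3527 genes with an unadjusted p under 0.05), and 16 higher and 18 lower once the spread could follow the level, so the number of calls depends on leaving out rarely detected genes. Without the library term (the replicate block) 139 and 199 were called, and the other alternatives kept both counts within 1.5 times. Against Epcam-positive cells, 308 higher and 152 lower became 130 and 89 with a pseudocount of 0.01, 54 and 20 with 1, 139 and 74 with no replicate block, 0 and 0 with no filter (2866 with an unadjusted p under 0.05) and 0 and 0 with 250 cells (1533). The share in replicate 2 over that in replicate 1, 1.12, was 0.997 with 1000 cells, 1.30 with 250 and 0.993 with Msln left out of the score. Itgb4 left out of the score differed by 1.06 after thinning. Single libraries gave 1.71 to 2.35 for Krt19, 1.47 to 2.46 for Msln, 1.05 to 1.68 for Fgfbp1, 1.201 to 1.24 for Itgb4, 1.83 to 1.96 for Perp and 1.30 to 1.44 for Dusp14. Of 95 called genes followed by name, 0 turned direction, and 377 of 1966 values no longer passed. The causes were not tested.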
